A study of Arabidopsis thaliana with 9 samples.

Results

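Dry seeds of the Arabidopsis thaliana mutant dog1-1 were compared with those of its wild type, Landsberg erecta (Ler), on 6 of the 9 Affymetrix expression arrays of the study, 3 for each genotype. The comparison takes in all 22746 probe sets that are not Affymetrix controls, and describes by function the 12574 named loci that lie outside 2 stretches of chromosome 5. Those stretches, AT5G01010 to AT5G03670 (147 named loci) and AT5G37310 to AT5G48370, around DOG1 (565 named loci), may carry Cvi sequence in the lines and were set aside.

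The labels describe Ler as wild type with low DOG1 expression, dog1-1 as a mutant in the Landsberg erecta background in which DOG1 expression is absent, and NILDOG1, shown beside them for a few values, as a near isogenic line in that background with strong DOG1 expression. Each replicate was a bulk of 8 plants, and RNA came from mature, freshly harvested dry seeds at the end of seed maturation. All 3 genotypes share the Landsberg erecta background, and dog1-1 is 1 mutant line, so DOG1 and any other difference between this line and Ler cannot be told apart. DOG1 (AT5G45830) itself had no named probe set, so the labels were not checked against it.

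DOG1 (DELAY OF GERMINATION 1) is a protein of maturing seeds that sets the depth of primary dormancy: seeds without it germinate soon after harvest. It acts together with the abscisic acid pathway, in part through protein phosphatases of the PP2C class that restrain abscisic acid signalling. A dry seed holds messenger RNA stored during maturation, among it transcripts for LEA proteins and small heat shock proteins, which protect dry cells, and transcripts for the translation machinery that is used when the seed takes up water.

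Values are log2 signals after RMA, the authors' normalization, so a difference of 1 is a 2-fold change. "Rose" and "fell" mean that dog1-1 was above or below Ler at an adjusted p under 0.05 (limma, Benjamini-Hochberg over all probe sets tested). Pearson correlations across probe sets ran from 0.976 to 0.983 between Ler and dog1-1 arrays and from 0.992 to 0.996 between the arrays of 1 of these genotypes. A group mean of at most 2.56, the highest value of the TrpnX control probe sets, whose bacterial transcript seeds lack, was read as background. In whole seeds, fewer cells of a type and less RNA per cell cannot be told apart. The hybridization controls had means of 9.19 to 9.57 on the Ler arrays and 8.81 to 9.14 on the dog1-1 arrays, and centring each array on them would raise the median change of all probe sets from -0.04 to 0.31, so each change below is relative to the centre that the deposited normalization set. As signs of RNA quality, the 3 prime minus 5 prime difference of the GAPDH control was 0.24 to 0.30 in Ler and 0.08 to 0.27 in dog1-1, that of the actin control 0.74 to 0.95 and 0.65 to 1.29, and that of the ubiquitin control -0.25 to -0.16 and -0.54 to -0.27. The seed identity of the samples was plain from AT3G15670, a LEA gene, with 13.89 to 13.90 in Ler and 13.80 to 13.89 in dog1-1.

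Between dog1-1 and Ler 3095 of 22746 probe sets passed (13.6%). Of these 61.2% were higher in dog1-1, a share that became 93.7% of 5173 after centring on the hybridization controls. Outside the set-aside stretches 777 of 12574 named loci rose (6.18%) and 599 fell (4.76%), and the median change of all of them was -0.05. A change of at least 2-fold was seen for 219 rises (1.74%) and 102 falls (0.811%). The rises and falls were spread over the nuclear genome: on chromosomes 1 to 5 between 5.68% and 6.62% of the named loci rose and between 4.29% and 5.20% fell.

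**Figure D1:**
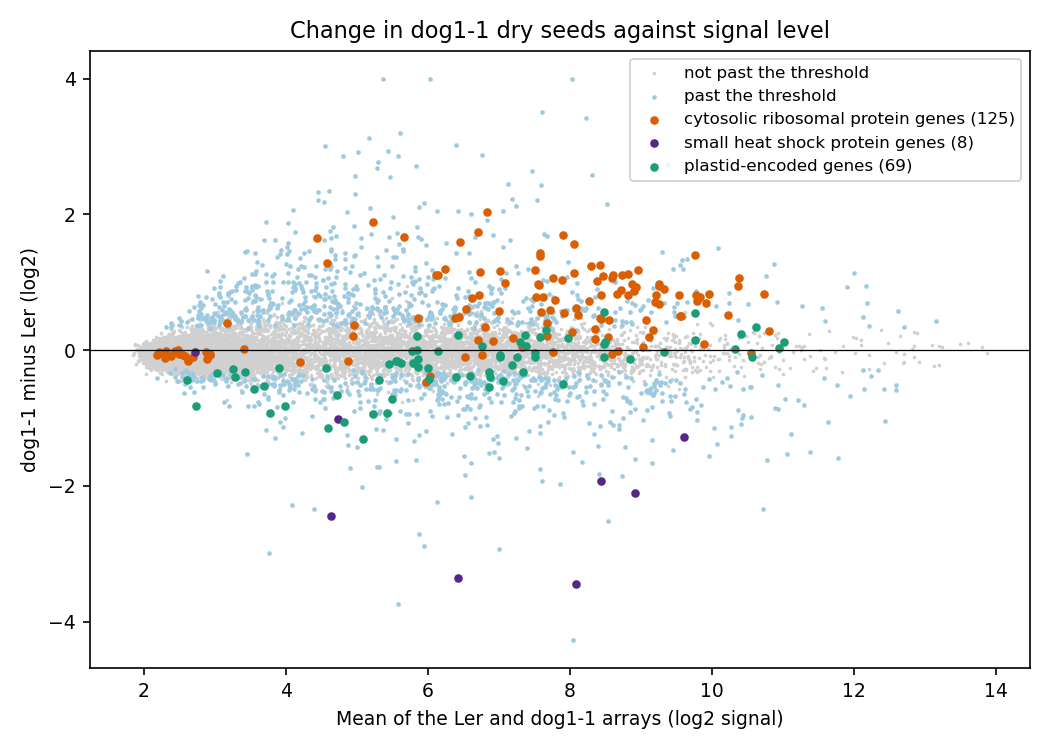
Change in dog1-1 against Ler (vertical axis, log2) over the mean of the 6 Ler and dog1-1 arrays (horizontal axis, log2 signal), 1 point per named locus outside the set-aside stretches. Most of the 125 cytosolic ribosomal protein loci with a signal over 6 lie above 0, while 7 of the 8 small heat shock protein loci and 13 of the 69 plastid-encoded loci fell.

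Of the lists with at least 8 measured loci, cytosolic ribosomal proteins had the highest share of rises. Among lists with at least 5, the tubulins had a higher one, with 5 of 7 (71.4%). Cytosolic ribosomal proteins build the 2 subunits of the ribosome that translates nuclear messages, and each is encoded in Arabidopsis by several near-identical genes. Of 125 measured loci for them 76 rose (60.8%, where 6.18% of all named loci rose), 1 fell (0.8%, against 4.76%) and 48 did not pass. Their median change was 0.60, against -0.05 for all named loci. When the arrays were centred on the hybridization controls 93 rose and 0 fell, and quantile normalization gave 75 rises. The list was drawn up from locus identifiers after the values had been seen, and it is described here without a test.

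The median signal of the 125 ribosomal protein loci was 7.48, 7.26 and 7.28 on the 3 Ler arrays and 7.81, 8.34 and 8.30 on the 3 dog1-1 arrays. On the NILDOG1 arrays it was 7.28, 7.19 and 7.43, so that the dog1-1 arrays stood above all others. Among the dog1-1 arrays replicate 1 was the lowest for 113 of the 125 loci. It lay a median of 0.36 above the Ler mean, where replicates 2 and 3 lay 0.79 and 0.76 above it. Without dog1-1 replicate 1 the count of rises was 82, and leaving out any other array gave between 60 and 67. The 25S ribosomal RNA control, a probe set for RNA of the large subunit, did not separate the genotypes, with 7.33, 11.44 and 11.80 in Ler and 11.88, 11.00 and 8.04 in dog1-1; its part in the result was not tested.

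The largest rise among these loci was that of AT1G27400, of the RPL17 family of the large subunit, which had 5.55, 5.86 and 6.07 in Ler and 7.41, 8.22 and 7.93 in dog1-1. It rose 4.08-fold (adjusted p = 2.23e-05), and the arrays of the genotypes did not overlap. AT3G06680, of the RPL29 family, had 4.06, 4.48 and 4.31 in Ler and 5.63, 6.34 and 6.53 in dog1-1, a rise of 3.69-fold (adjusted p = 5.02e-05). AT3G16080, of the RPL37 family, had 5.90, 5.91 and 5.70 in Ler and 7.0, 7.97 and 7.77 in dog1-1 and rose 3.35-fold (adjusted p = 8.68e-05). In each of these the dog1-1 replicate 1 array was the lowest of its group and still above every Ler array. Small-subunit genes took part as well. AT3G11510, of the RPS14 family, had 7.13, 6.95 and 7.10 in Ler and 8.44, 8.96 and 8.87 in dog1-1 and rose 3.24-fold (adjusted p = 4.66e-06). AT5G58420, of the RPS4 family, had 5.79, 5.71 and 5.47 in Ler and 6.74, 7.43 and 7.60 in dog1-1 and rose 3.03-fold (adjusted p = 1.70e-04). AT5G16130, of the RPS7 family, had 7.35, 7.34 and 7.17 in Ler and 8.19, 9.13 and 9.22 in dog1-1 and rose 2.95-fold (adjusted p = 4.06e-04). These members were named after their values were seen.

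Genes with high signals in Ler rose too. AT3G09200, for the acidic stalk protein P0, had 10.05, 9.72 and 9.91 in Ler and 10.65, 10.81 and 11.04 in dog1-1 and rose 1.92-fold (adjusted p = 3.50e-04). AT2G01250, of the RPL7 family, had 8.11, 7.92 and 7.73 in Ler and 8.71, 9.08 and 9.26 in dog1-1 and rose 2.14-fold (adjusted p = 2.15e-04). PGY1 (AT2G27530), of the RPL10a family and known for its part in leaf shape, had 9.35, 9.35 and 9.63 in Ler and 9.76, 10.50 and 10.40 in dog1-1 and rose 1.72-fold (adjusted p = 0.00938). The rises ran from 1.32-fold to 4.08-fold with a median of 1.91-fold. By level, 7 of 31 ribosomal protein loci with a mean signal under 6 over all arrays rose, 29 of 41 between 6 and 8, 36 of 47 between 8 and 10, and 4 of 6 at 10 or more, and the median changes of all loci in these classes were -0.03, 0.76, 0.81 and 0.67. At background in both genotypes were 9 of the 125. The single fall was that of AT3G04230, of the RPS16 family, with 6.24, 6.27 and 6.10 in Ler and 5.50, 5.95 and 5.74 in dog1-1 (adjusted p = 0.0364). Since the families hold near-identical copies, a probe set may also record a sister gene, although none of the 125 had one of the suffixes that mark probe sets with known matches to more than 1 gene.

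**Figure D2:**
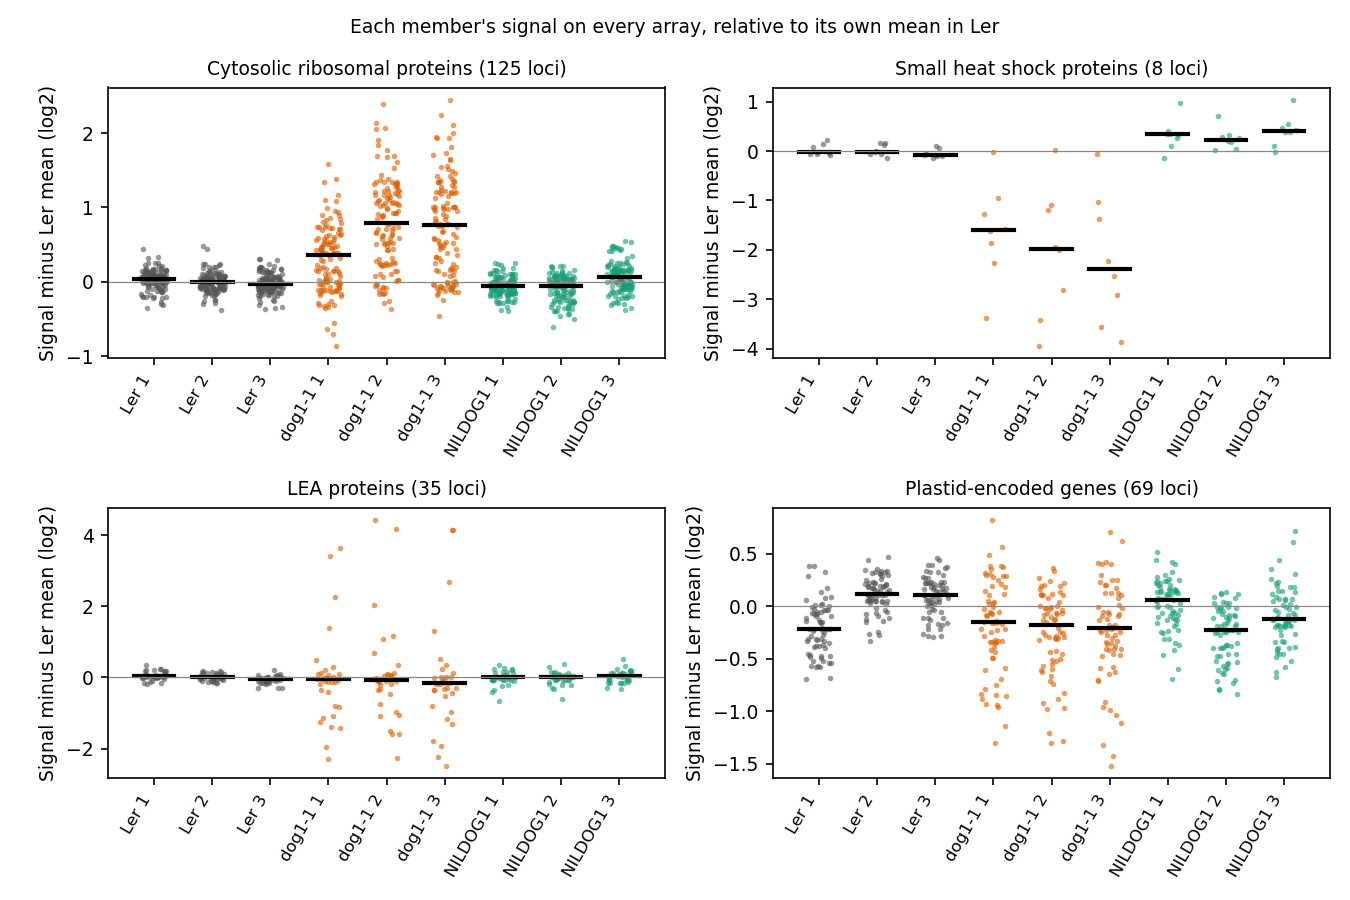
Signal of each member minus its own mean over the Ler arrays (log2, vertical axis) on each of the 9 arrays (horizontal axis), for 4 gene groups; points are loci and black bars medians. Ribosomal protein loci are raised on the dog1-1 arrays, least on replicate 1, small heat shock protein loci are lowered there, LEA loci spread both ways, and plastid-encoded loci differ among the Ler arrays too, replicate 1 being the lowest.

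Other parts of protein synthesis and turnover were thinly measured. The lists of translation factors, plastid ribosomal proteins and proteasome subunits were drawn up after the values had been seen. Of 5 loci for translation factors 1 rose and 0 fell: AT5G19510, for a subunit of elongation factor 1B, had 9.45, 9.24 and 9.35 in Ler and 9.96, 10.30 and 10.40 in dog1-1 and rose 1.83-fold (adjusted p = 5.50e-04). PRH75, an RNA helicase of the nucleolus, where ribosomes are built, had 7.65, 7.89 and 8.17 in Ler and 8.34, 8.33 and 8.81 in dog1-1 and rose 1.51-fold (adjusted p = 0.0362). Of 8 nuclear genes for ribosomal proteins of the plastid 3 rose and 0 fell, led by AT4G17560, of the L19 family, with 4.09, 3.77 and 3.60 in Ler and 4.33, 4.61 and 5.06 in dog1-1 (1.81-fold, adjusted p = 0.00506). Of 8 subunit genes of the proteasome, which degrades ubiquitin-tagged proteins, 3 rose by at most 1.33-fold and 0 fell, and AT2G32730, with the largest of these changes, had 6.82, 7.04 and 7.0 in Ler and 7.39, 7.27 and 7.44 in dog1-1 (adjusted p = 0.0203). The rises of these lists stand beside 6.18% for all named loci, and their medians were 0.28 for translation factors, 0.22 for plastid ribosomal proteins and 0.31 for the proteasome.

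Small heat shock proteins are chaperones that hold unfolded proteins and build up in drying seeds. The list, drawn up after the values had been seen, held 16 loci, of which 8 were measured here. Of these 8 loci 7 fell (87.5%, against 4.76% of all named loci) and 0 rose, and the median change was -2.02. The count of falls was 7 also after centring on the hybridization controls and after quantile normalization. AT1G53540 (HSP17.6C) had 9.78, 9.94 and 9.71 in Ler and 6.43, 6.40 and 6.26 in dog1-1, with 10.16, 9.99 and 10.27 in NILDOG1. AT2G29500 (HSP17.6B) had 8.08, 8.25 and 7.96 in Ler and 5.84, 4.16 and 4.23 in dog1-1, and here dog1-1 replicate 1 lay well above the other arrays of its group. ATHSP22.0 (AT4G10250), a chaperone of the endoplasmic reticulum, had 5.81, 5.86 and 5.92 in Ler and 4.24, 3.06 and 2.95 in dog1-1, again with replicate 1 the highest. In all 7 each dog1-1 array lay under each Ler array, as it did in 13.9% of the named loci outside the stretches. AT2G19310, AT1G52560, AT1G54050 and AT5G51440 fell by 2.11, 1.93, 1.28 and 1.02 on the log2 scale.

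Partners of the larger chaperones moved in both directions, and those given here were chosen after their values were seen. Hop3, a co-chaperone that links HSP70 and HSP90, had 4.90, 6.10 and 5.72 in Ler and 4.49, 3.97 and 4.05 in dog1-1 and fell 2.64-fold (adjusted p = 0.0021). Fes1A, a nucleotide exchange factor of HSP70 needed for heat tolerance, had 9.24, 8.95 and 9.13 in Ler and 8.32, 7.83 and 7.95 in dog1-1 and fell 2.09-fold (adjusted p = 1.31e-04). HSA32, a protein that prolongs acquired heat tolerance, had 9.27, 9.01 and 9.16 in Ler and 8.72, 8.35 and 8.25 in dog1-1 and fell 1.64-fold (adjusted p = 0.00332). In contrast Fes1B, a relative of Fes1A, had 3.38, 3.46 and 3.25 in Ler and 3.99, 4.64 and 5.26 in dog1-1 and rose 2.41-fold (adjusted p = 0.00304). AT3G09440, an HSP70 gene, had 8.73, 8.47 and 8.53 in Ler and 10.27, 9.74 and 10.06 in dog1-1, a rise of 2.72-fold (adjusted p = 2.18e-05), with no overlap between the groups. AT1G26800, for a RING-type ubiquitin ligase that acts in the quality control of misfolded proteins, had 9.92, 9.75 and 9.72 in Ler and 7.27, 7.34 and 7.21 in dog1-1 and fell 5.75-fold (adjusted p = 1.67e-08).

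LEA proteins shield membranes and enzymes as water is lost. Their list too was drawn up after the values had been seen. Of 35 loci 6 rose (17.1%, against 6.18% of all named loci), 11 fell (31.4%, against 4.76%) and 18 did not pass, and the median change was -0.10; with the arrays centred on the hybridization controls it had 7 rises and 8 falls. The falls were of genes with high signals in Ler. AT3G22490 had 11.90, 11.99 and 11.81 in Ler and 9.60, 9.63 and 9.42 in dog1-1 and fell 5.09-fold (adjusted p = 3.9e-08). AT3G53040 had 12.37, 12.73 and 12.60 in Ler and 11.18, 10.98 and 10.77 in dog1-1 and fell 3.02-fold (adjusted p = 5.61e-06). LEA4-5, whose level is close to the top of the scale, had 12.91, 12.97 and 13.01 in Ler and 11.89, 12.22 and 11.65 in dog1-1 and fell 2.06-fold (adjusted p = 1.60e-04). The rises were led by genes that were dim in Ler. AT4G38410, a dehydrin gene, had 3.52, 3.33 and 3.27 in Ler and 6.79, 7.81 and 7.51 in dog1-1 and rose 16-fold (adjusted p = 1.69e-07). AT1G54410, for the small histidine-rich dehydrin HIRD11, had 4.22, 4.15 and 3.76 in Ler and 7.69, 8.22 and 8.18 in dog1-1 and rose 15.9-fold (adjusted p = 3.9e-08). COR47, a dehydrin gene induced by cold, had 3.29, 3.19 and 3.39 in Ler and 5.56, 5.33 and 5.97 in dog1-1 and rose 5.04-fold (adjusted p = 4.91e-07). LTI30, a dehydrin gene already bright in Ler, had 12.56, 12.48 and 12.57 in Ler and 12.84, 12.89 and 12.90 in dog1-1 and rose 1.27-fold (adjusted p = 0.0278). Dehydrins were also among the falls, since AT4G39130 had 8.74, 8.70 and 8.26 in Ler and 6.61, 6.99 and 6.32 in dog1-1 and fell 3.81-fold (adjusted p = 9.51e-06).

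The few reserve genes that were measured changed by less than 2-fold. Both lists of them were drawn up after the values had been seen. The storage protein list held 13 loci, of which 5 were measured. Of these 5 loci 1 rose (20%, against 6.18% of all named loci) and 2 fell (40%, against 4.76%). AT1G03890, a cruciferin-like gene, rose 1.61-fold (adjusted p = 6.48e-04). The cupin-family genes AT2G18540 and AT4G36700 fell 1.96-fold (adjusted p = 0.00113) and 1.93-fold (adjusted p = 8.45e-04). The oil body protein list held 10 loci, of which 4 were measured. Of these AT3G18570 fell by 0.43 and 3 did not pass. ICL, the isocitrate lyase that turns stored fat toward sugar, had 12.69, 13.07 and 13.07 in Ler and 13.33, 13.36 and 13.42 in dog1-1 and rose 1.34-fold (adjusted p = 0.0328).

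**Figure D3:**
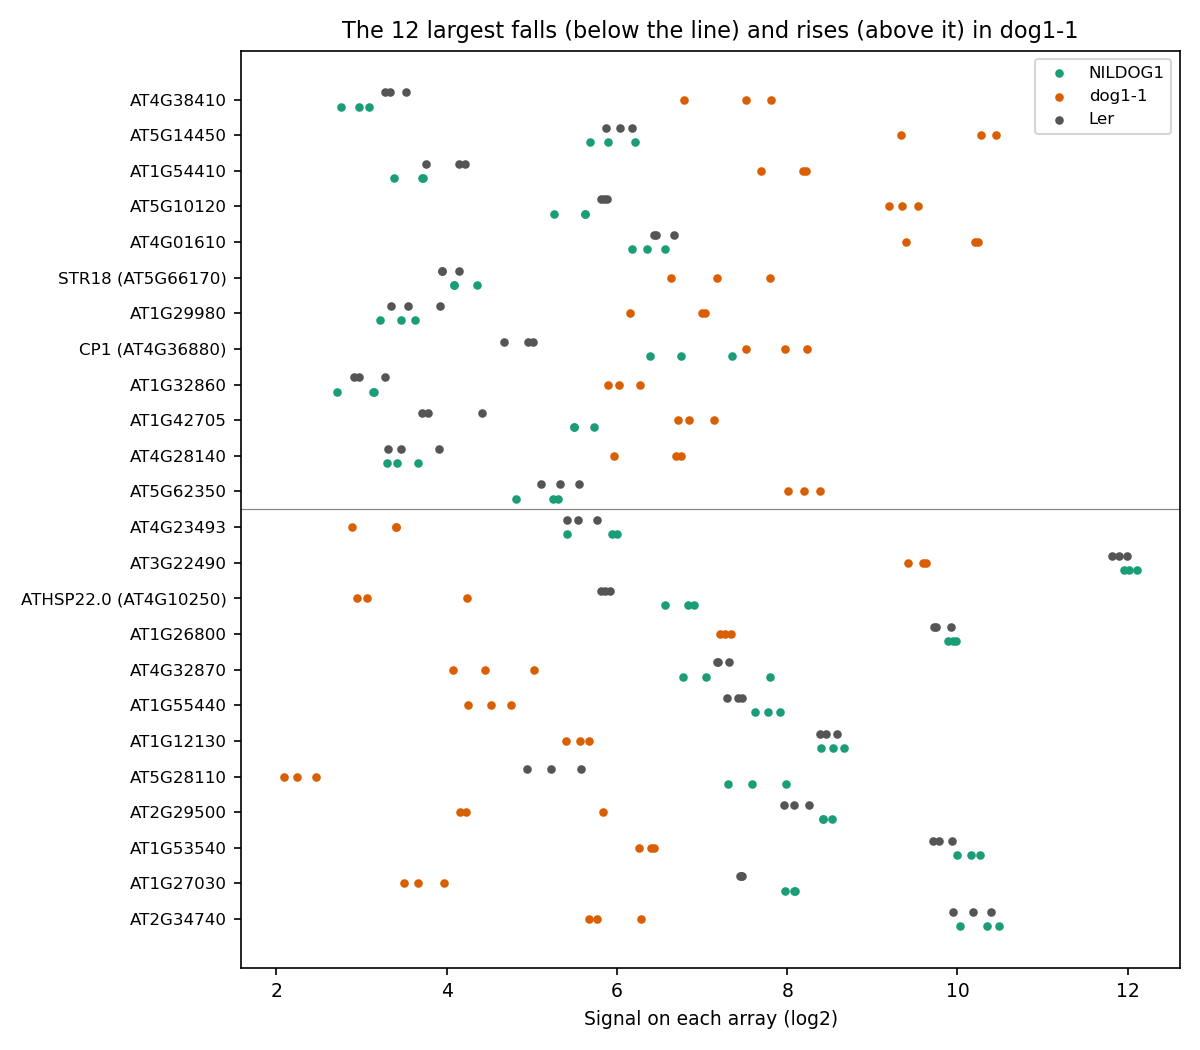
Signal on each array (log2, horizontal axis) for the 12 named loci with the largest rises and the 12 with the largest falls outside the set-aside stretches, 3 points per genotype. The dog1-1 points stand apart from those of Ler in all 24, which the selection required.

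The largest falls included regulators beside the protective proteins. AT2G34740, of the PP2C phosphatase family, had 10.18, 10.39 and 9.95 in Ler and 5.67, 6.28 and 5.77 in dog1-1 and fell 19.3-fold (adjusted p = 3.71e-08). AT1G12130, of the flavin monooxygenase family, had 8.38, 8.59 and 8.45 in Ler and 5.40, 5.67 and 5.56 in dog1-1 and fell 7.61-fold (adjusted p = 2.23e-08). AT1G55440, of a family with C1 (zinc-binding) domains, had 7.29, 7.47 and 7.42 in Ler and 4.76, 4.52 and 4.25 in dog1-1 and fell 7.37-fold (adjusted p = 7.46e-08). In these loci each dog1-1 array lay more than 2 units below the Ler arrays. AT5G28110 had 4.94, 5.23 and 5.58 in Ler and 2.24, 2.09 and 2.47 in dog1-1 (adjusted p = 7.46e-07), at background in dog1-1, so it fell at least 6.47-fold; the suffix of its probe set marks possible matches to more than 1 gene, as does that of AT1G42705, which rose 7.66-fold (adjusted p = 5.18e-07). The other large falls, of AT1G27030, AT4G32870 and AT4G23493, were of 13.4-fold, 6.55-fold and 5.05-fold. PP2C genes did not all fall. PIA1 (AT2G20630), the 1 measured locus of the list of type 2C phosphatases, went the other way from AT2G34740. It had 4.10, 3.45 and 3.51 in Ler and 6.61, 5.81 and 6.33 in dog1-1 and rose 5.92-fold (adjusted p = 4.99e-06). Of 9 loci listed for clade A PP2C, the group that restrains abscisic acid signalling, 0 were measured.

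Among the largest rises, AT5G14450, of the GDSL lipase family, had 6.18, 5.87 and 6.04 in Ler and 9.34, 10.28 and 10.45 in dog1-1 and rose 15.9-fold (adjusted p = 5.18e-07). AT5G10120, of the EIN3-like family of ethylene-pathway transcription factors, had 5.85, 5.88 and 5.81 in Ler and 9.19, 9.35 and 9.54 in dog1-1 and rose 11.4-fold (adjusted p = 1.18e-08), while EIN3 itself had 9.21, 9.40 and 9.41 in Ler and 9.60, 9.41 and 9.72 in dog1-1 and did not pass (adjusted p = 0.19). AT4G28140, of the AP2/ERF family of transcription factors, had 3.91, 3.31 and 3.46 in Ler and 6.69, 5.97 and 6.75 in dog1-1 and rose 7.52-fold (adjusted p = 2.05e-06). STR18, a thiosulfate sulfurtransferase, had 3.95, 3.94 and 4.15 in Ler and 6.63, 7.80 and 7.18 in dog1-1 and rose 9.14-fold (adjusted p = 1.85e-06). Its dog1-1 arrays spread over more than 1 unit, all of them above Ler.

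Cell wall genes rose more often than they fell. Of 26 loci for expansins, which loosen walls, and for xyloglucan enzymes 5 rose (19.2%, against 6.18% of all named loci), and 0 fell; 21 did not pass, and the median change was 0.03. EXPA15 had 4.46, 4.76 and 4.36 in Ler and 6.58, 6.0 and 6.85 in dog1-1 and rose 3.88-fold (adjusted p = 4.07e-05). EXGT-A3, a xyloglucan enzyme, had 6.05, 5.75 and 6.12 in Ler and 7.12, 6.74 and 6.81 in dog1-1 and rose 1.89-fold (adjusted p = 7.19e-04). EXPA20 had 3.36, 2.74 and 3.27 in Ler and 3.77, 4.15 and 4.22 in dog1-1 and rose 1.90-fold (adjusted p = 0.00332), from a low signal. EXPA8 and XTH19 rose from signals at or just above background. Of 8 loci for DUF642 proteins, which sit in the wall and bind its polymers, 3 rose (37.5%, beside the same 6.18%) and 0 fell. AT3G08030 had 8.33, 7.86 and 7.87 in Ler and 10.54, 10.76 and 10.95 in dog1-1 and rose 6.63-fold (adjusted p = 5.32e-07). AT5G11420 had 6.07, 5.92 and 5.71 in Ler and 8.09, 8.40 and 8.55 in dog1-1 and rose 5.44-fold (adjusted p = 2.25e-07). AT1G29980 had 3.92, 3.54 and 3.35 in Ler and 6.15, 7.0 and 7.04 in dog1-1 and rose 8.70-fold (adjusted p = 2.08e-06). These 3 were at 3.22 to 8.04 on the NILDOG1 arrays, with 7.78, 8.04 and 7.51, 5.59, 5.74 and 5.67 and 3.22, 3.46 and 3.63, close to Ler.

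Of 39 glycosyl hydrolase loci 7 rose (17.9%, against 6.18% of all named loci), 2 fell (5.13%, against 4.76%) and 30 did not pass. GH9B7, an endoglucanase of the cellulase family, had 4.07, 4.0 and 3.99 in Ler and 5.33, 5.30 and 5.14 in dog1-1 and rose 2.35-fold (adjusted p = 9.5e-06). BGLU16, of the beta-glucosidase family, had 4.23, 4.63 and 4.81 in Ler and 5.38, 5.52 and 5.47 in dog1-1 and rose 1.87-fold (adjusted p = 6.91e-04). BGLU19, a beta-glucosidase family gene bright in dry seeds, had 12.73, 12.94 and 12.88 in Ler and 12.18, 12.32 and 12.51 in dog1-1 and fell 1.43-fold (adjusted p = 0.0066). COB (COBRA), a membrane-anchored protein that orients cellulose, had 6.12, 6.59 and 6.32 in Ler and 8.07, 7.88 and 7.93 in dog1-1 and rose 3.06-fold (adjusted p = 4.79e-05), with dog1-1 at 7.88 or more on every array. COB was named after its value was seen. AT5G62350, of the invertase and pectin methylesterase inhibitor family, had 5.11, 5.55 and 5.33 in Ler and 8.01, 8.38 and 8.20 in dog1-1 and rose 7.32-fold (adjusted p = 2.42e-07). AT1G32860, of the glycosyl hydrolase 17 family, was not among the 39 loci of the list. It had 2.91, 2.97 and 3.27 in Ler and 6.27, 6.02 and 5.89 in dog1-1 and rose 8.07-fold (adjusted p = 1.09e-07). Of 5 loci for pectin enzymes 0 rose and 0 fell in limma, and in the list of 10 cellulose synthases and wall proteins CSLC5, a glucan synthase of the xyloglucan pathway, rose 1.33-fold (adjusted p = 0.0269) and AT3G09000 fell 1.90-fold (adjusted p = 0.00118).

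The cytoskeleton list of 17 loci had 5 rises (29.4%, against 6.18% of all named loci), 0 falls and 12 loci that did not pass. All 5 rises were of tubulins, the subunits of microtubules, of which 7 were measured (71.4% rose). The tubulins were made a list of their own after the values had been seen. TUA6 had 3.18, 3.35 and 3.30 in Ler and 4.37, 4.27 and 4.52 in dog1-1 and rose 2.16-fold (adjusted p = 5.36e-04). TUB7 had 4.33, 5.0 and 4.78 in Ler and 5.19, 5.49 and 5.47 in dog1-1 and rose 1.60-fold (adjusted p = 0.0109). TUA1, bright in Ler beside the others, had 6.37, 6.33 and 6.78 in Ler and 6.92, 6.93 and 7.21 in dog1-1 and rose 1.44-fold (adjusted p = 0.032). TUB9 rose 1.29-fold (adjusted p = 0.0334), and TUB6 rose at least 1.47-fold, from background in Ler. The count of 5 rested on single arrays: it was 3 without Ler replicate 2, 3 without dog1-1 replicate 2 and 2 without dog1-1 replicate 3, and 3 in a fit of the 6 Ler and dog1-1 arrays alone. Outside the list, and chosen after their values were seen, ATMAP65-6, of a family that bundles microtubules, had 3.03, 2.84 and 2.97 in Ler and 3.80, 4.35 and 4.57 in dog1-1 (2.45-fold, adjusted p = 2.02e-04), and NET1D, of a family that binds actin, had 3.09, 3.46 and 3.26 in Ler and 4.81, 5.16 and 5.04 in dog1-1 (3.33-fold, adjusted p = 6.51e-06). SIM (SIAMESE), an inhibitor of cyclin-dependent kinases, had 6.69, 6.92 and 6.72 in Ler and 8.31, 8.70 and 8.46 in dog1-1 and rose 3.29-fold (adjusted p = 1.85e-06). SIM was also chosen after its value was seen, and its locus, AT5G04470, is near the set-aside start of chromosome 5.

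A few protease genes were among the strongest rises, while most members of their lists did not pass. Of 20 loci for papain-like cysteine proteases, the class that degrades storage proteins in seedlings, 4 rose and 0 fell. The share of rises was 20%, against 6.18% of all named loci, and the median change was -0.02. This list was drawn up after the values had been seen, and its members AT4G01610 and CP1 are among the 12 largest rises. AT4G01610, of the cathepsin B type, had 6.44, 6.67 and 6.46 in Ler and 9.39, 10.24 and 10.20 in dog1-1 and rose 10.7-fold (adjusted p = 3.99e-07). AT3G45310 had 4.21, 4.25 and 3.97 in Ler and 6.17, 7.53 and 7.32 in dog1-1 and rose 7.28-fold (adjusted p = 1.92e-05). CP1 had 4.96, 5.01 and 4.67 in Ler and 7.52, 8.23 and 7.97 in dog1-1 and rose 8.14-fold (adjusted p = 3.39e-06), and NILDOG1 had 6.75, 7.35 and 6.39, above every Ler array and below every dog1-1 array. AT1G02305, also of the cathepsin B type, was already at 8.44 on average in Ler and rose 1.28-fold (adjusted p = 0.0375). Of 34 loci for serine carboxypeptidases and subtilases 4 rose (11.8%, against 6.18% of all named loci) and 1 fell (2.94%, against 4.76%), and the median change was -0.08, with 20 of the 34 below 0. The rises were led by carboxypeptidase-like genes: scpl35 had 4.10, 4.10 and 3.64 in Ler and 6.06, 6.84 and 6.98 in dog1-1 (6.41-fold, adjusted p = 6.98e-06), and scpl29 had 4.12, 3.86 and 3.54 in Ler and 5.52, 6.10 and 6.02 in dog1-1 (4.10-fold, adjusted p = 1.47e-05). In both of them dog1-1 replicate 1 was the lowest array of its group and above every Ler array. GAMMA-VPE, a vacuolar processing enzyme, rose 1.36-fold (adjusted p = 0.0481) although its Ler and dog1-1 arrays overlapped, with 8.41, 8.67 and 8.15 in Ler and 8.66, 8.94 and 8.95 in dog1-1. Of 11 autophagy loci 0 rose and 0 fell in limma, and APG8H, the brightest of them, had 11.09, 11.03 and 10.79 in Ler and 10.74, 11.09 and 10.98 in dog1-1.

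Of 13 nuclear photosynthesis loci 4 rose (30.8%, against 6.18% of all named loci) and 0 fell, and the median change was 0.46. With the arrays centred on the hybridization controls the counts were 10 and 0. This list was put together after the values had been seen. RCA, the activase of Rubisco, had 4.41, 4.39 and 4.10 in Ler and 5.66, 5.93 and 5.86 in dog1-1 and rose 2.86-fold (adjusted p = 8.91e-06). AT4G01150, for the thylakoid protein CURT1A, had 5.55, 5.11 and 4.95 in Ler and 6.0, 6.46 and 6.82 in dog1-1 and rose 2.34-fold (adjusted p = 0.00104). LHCB4.3, of the light-harvesting proteins of photosystem II, had 4.51, 3.98 and 3.96 in Ler and 5.08, 5.12 and 5.20 in dog1-1 and rose 1.97-fold (adjusted p = 0.00145). NdhS (AT4G23890), a nuclear gene for a subunit of the plastid NADH dehydrogenase-like complex that this list did not hold, had 5.52, 5.25 and 5.16 in Ler and 4.74, 4.92 and 5.08 in dog1-1 and fell 1.31-fold (adjusted p = 0.0489). Among plastid redox proteins of nuclear genes, the thioredoxins ATHM2, TRXF2 and the thioredoxin reductase NTRC rose by 0.62, 0.45 and 0.54 on the log2 scale, the 3 rises of a list of 12 thioredoxins and glutaredoxins in which GRXC1, a cytosolic glutaredoxin, fell by 0.51. CHLM, an enzyme of chlorophyll synthesis, had 4.29, 4.0 and 3.97 in Ler and 4.79, 5.05 and 4.82 in dog1-1 and rose 1.74-fold (adjusted p = 6.11e-04).

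Of 69 plastid-encoded loci 1 rose (1.45%), 13 fell (18.8%, against 4.76% of all named loci) and 55 did not pass, with a median change of -0.19, but after centring on the hybridization controls 5 were lower and 8 higher. The falls included 4 of 10 ndh genes, which encode the plastid NADH dehydrogenase-like complex, 4 of 26 genes for the photosystems and the cytochrome complex, and 4 of 19 for plastid ribosomal proteins and RNA polymerase. petN, for a small subunit of the cytochrome complex, had 5.88, 5.90 and 5.46 in Ler and 4.61, 4.45 and 4.23 in dog1-1 and fell 2.49-fold (adjusted p = 3.56e-05). ndhG had 5.55, 5.08 and 4.88 in Ler and 4.24, 3.96 and 3.85 in dog1-1 and fell 2.23-fold (adjusted p = 9.36e-04). ndhJ had 5.25, 5.40 and 5.38 in Ler and 4.04, 4.46 and 4.36 in dog1-1 and fell 2.08-fold (adjusted p = 5.79e-04). psaJ, a small subunit of photosystem I, was the single rise, with 9.49, 9.23 and 9.76 in Ler and 10.06, 9.86 and 10.20 in dog1-1 (adjusted p = 0.0439). The median of the 69 loci was 6.25, 6.52 and 6.65 in Ler and 6.34, 6.22 and 6.51 in dog1-1, so the groups overlapped as a whole. Ler replicate 1 and dog1-1 replicate 3 were low in the 25S ribosomal RNA control; the first had the lowest median of its group here and the other the highest. Without Ler replicate 1, 13 loci fell, and leaving out other arrays gave 9 to 13. The part of RNA makeup in these falls was not tested, and the fall of ndhF, to background in dog1-1, was of at least 1.51-fold.

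Single enzymes of redox metabolism rose, in lists whose other members mostly did not pass. PRXR1, a class III peroxidase, had 7.34, 7.51 and 7.50 in Ler and 9.78, 9.24 and 9.81 in dog1-1 and rose 4.47-fold (adjusted p = 1.65e-06). It was the single call among 11 peroxidases and catalases (9.09% rose, near the 6.18% of all named loci). Of 8 aldehyde and alcohol dehydrogenase loci 3 rose (37.5%, against 6.18% of all named loci) and 0 fell, and the median change was 0.28. Among them ALDH3F1 had 5.29, 5.51 and 5.63 in Ler and 6.17, 6.92 and 6.88 in dog1-1 (2.26-fold, adjusted p = 7.61e-04). Of 12 glutathione transferases GSTU20 rose 2.69-fold (adjusted p = 2.11e-05) and GSTU28 fell 1.58-fold (adjusted p = 0.00311). That is 8.33% in each direction, near the 6.18% and 4.76% of all named loci, and the median change was -0.08. MT1C, a metallothionein that binds metals, had 7.37, 6.66 and 7.01 in Ler and 9.42, 9.65 and 9.73 in dog1-1 and rose 6.0-fold (adjusted p = 1.44e-05). SIR, the sulfite reductase of sulfate assimilation, had 9.26, 9.50 and 9.28 in Ler and 8.44, 8.48 and 8.53 in dog1-1 and fell 1.82-fold (adjusted p = 6.29e-05). SIR was named after its value was seen, and its locus, AT5G04590, is near the set-aside start of chromosome 5.

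The GAPDH control of the array was higher in dog1-1, with 3 prime values of 7.10, 6.84 and 6.76 in Ler and 8.12, 8.40 and 8.51 in dog1-1. Of 4 measured genes of glycolysis 3 rose (75%, against 6.18% of all named loci) and 0 fell, and the median change was 0.58. GAPC2, a cytosolic GAPDH, had 9.25, 9.28 and 9.19 in Ler and 9.70, 9.70 and 9.81 in dog1-1 and rose 1.41-fold (adjusted p = 0.00356), TPI, the triosephosphate isomerase, rose 1.58-fold (adjusted p = 0.0151), and PGM (AT1G78050), of the phosphoglycerate mutase family, rose 1.80-fold (adjusted p = 9.99e-04). Genes for steps toward the GDP-sugars of walls and ascorbate, chosen after their values were seen, also rose: GME, the GDP-mannose epimerase, had 6.63, 6.41 and 6.58 in Ler and 7.55, 7.61 and 7.87 in dog1-1 (2.20-fold, adjusted p = 2.78e-05), and PMM, the phosphomannomutase, had 4.78, 4.37 and 5.35 in Ler and 5.78, 6.33 and 5.71 in dog1-1 (2.15-fold, adjusted p = 0.00559). ACLB-1, a subunit of the ATP-citrate lyase that supplies acetyl-CoA in the cytosol, had 2.89, 3.34 and 2.86 in Ler and 4.43, 4.35 and 5.18 in dog1-1 and rose 3.09-fold (adjusted p = 1.65e-04). ACLB-1 too was chosen after its value was seen. Of 11 loci of the tricarboxylic acid and glyoxylate cycles 2 rose, cICDH with 0.52 beside ICL, and SDH1-1 fell by 0.32. That is 18.2% higher and 9.09% lower, where 6.18% and 4.76% of all named loci were. The fall of SDH1-1 turned to a change of 0.030 after centring on the hybridization controls.

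Of 52 glycosyltransferases, which attach sugars to small molecules, 4 rose (7.69%) and 6 fell (11.5%), with a median change of -0.10. The shares of all named loci were 6.18% and 4.76%. With the arrays centred on the hybridization controls 12 of the glycosyltransferases were higher and 3 lower. UGT85A5 had 8.16, 8.65 and 8.55 in Ler and 6.73, 6.71 and 6.69 in dog1-1 and fell 3.36-fold (adjusted p = 1.84e-06). UGT85A3 had 7.62, 7.58 and 7.82 in Ler and 6.55, 6.08 and 6.29 in dog1-1 and fell 2.58-fold (adjusted p = 2.47e-05), whereas UGT85A7 of the same subfamily had 4.88, 5.15 and 4.96 in Ler and 5.69, 5.44 and 5.66 in dog1-1 and rose 1.51-fold (adjusted p = 0.00407). UGT71B1 had 4.26, 4.19 and 3.85 in Ler and 5.0, 5.11 and 4.98 in dog1-1, the largest rise of the list (1.90-fold, adjusted p = 2.52e-04). Among 26 cytochrome P450 loci 2 rose (7.69%) and 1 fell (3.85%), shares near those of all named loci.

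Hormone genes were few in the annotation, and single members moved. EEL, a bZIP factor that acts on late embryogenesis genes in the abscisic acid pathway, had 7.61, 7.50 and 7.70 in Ler and 8.61, 8.30 and 8.46 in dog1-1 and rose 1.81-fold (adjusted p = 2.56e-04). Of 11 auxin genes GH3.1 rose 1.51-fold (adjusted p = 0.0163) and IAA30, of the family of auxin response repressors, had 6.34, 6.38 and 5.91 in Ler and 5.15, 5.51 and 5.13 in dog1-1 and fell 1.93-fold (adjusted p = 0.0182). WES1 (GH3.5), an enzyme that conjugates auxin to amino acids and was named after its value was seen, had 3.67, 3.93 and 3.86 in Ler and 6.02, 6.15 and 6.18 in dog1-1 and rose 4.91-fold (adjusted p = 9.52e-08); all dog1-1 arrays were above 6. LBD16, an auxin-responsive factor of lateral root initiation, had 5.0, 4.58 and 4.42 in Ler and 6.06, 6.41 and 5.96 in dog1-1 and rose 2.79-fold (adjusted p = 4.83e-05). RALFL34, for a peptide signal of the RALF family, had 3.97, 4.19 and 3.98 in Ler and 5.90, 5.84 and 5.90 in dog1-1 and rose 3.56-fold (adjusted p = 1.36e-07). LBD16 and RALFL34 were also named after their values were seen. Neither of the 2 measured jasmonate genes nor any of the 8 brassinosteroid and cytokinin genes passed in limma; BRH1, the brightest of the latter, had 3.7, 3.86 and 3.46 in Ler and 3.79, 3.83 and 3.66 in dog1-1, and 4 of the 8 were at background in both genotypes. The gibberellin receptor GID1A, with 9.07, 9.05 and 9.04 in Ler and 8.84, 8.57 and 8.90 in dog1-1, did not pass (adjusted p = 0.111). GID1C, with 6.71, 6.79 and 7.06 in Ler and 6.34, 6.73 and 6.58 in dog1-1, did not pass either (adjusted p = 0.142).

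Among transcription factors, of 20 bZIP loci 2 rose (10%) and 1 fell (5%), shares near the 6.18% and 4.76% of all named loci. Beside EEL, bZIP44 rose, with 3.40, 3.22 and 3.24 in Ler and 3.54, 3.87 and 3.89 in dog1-1 (1.39-fold, adjusted p = 0.0209). BZIP53, an activator of maturation genes, had 7.82, 8.10 and 7.78 in Ler and 7.38, 7.20 and 7.21 in dog1-1 and fell 1.56-fold (adjusted p = 0.00209). Of 7 bHLH loci 2 rose (28.6%, against 6.18% of all named loci) and 0 fell. SPT (SPATULA), a regulator of germination, had 2.84, 3.20 and 3.21 in Ler and 3.82, 3.90 and 4.17 in dog1-1 and rose 1.85-fold (adjusted p = 6.87e-04). PYE (POPEYE), a bHLH factor of the iron deficiency response that the list did not hold, had 7.37, 7.19 and 6.73 in Ler and 5.87, 6.18 and 5.84 in dog1-1 and fell 2.19-fold (adjusted p = 6.81e-04). WRKY22 had 5.08, 6.02 and 5.37 in Ler and 3.63, 4.77 and 4.31 in dog1-1 and fell 2.38-fold (adjusted p = 0.00821), 1 of 6 WRKY loci. NGA1, a B3 factor of leaf and flower development, had 4.80, 4.31 and 4.46 in Ler and 3.14, 3.66 and 3.40 in dog1-1 and fell 2.18-fold (adjusted p = 9.65e-04). Of 41 MADS loci, 22 of them at background in both genotypes, 0 rose and AGL18 fell 1.41-fold (adjusted p = 0.00564). PYE and NGA1 were named after their values were seen.

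In the chromatin list 3 of 21 loci fell (14.3%, against 4.76% of all named loci) and 0 rose. With the arrays centred on the hybridization controls 3 were higher and 2 lower. HIS1-3, a linker histone induced by drought, had 9.18, 9.54 and 9.05 in Ler and 7.93, 8.23 and 8.27 in dog1-1 and fell 2.16-fold (adjusted p = 4.15e-04). HTB11, a histone H2B, had 8.27, 7.97 and 7.86 in Ler and 7.12, 7.41 and 7.10 in dog1-1 and fell 1.77-fold (adjusted p = 0.00418). The other fall, of HISN5B, is of an enzyme of histidine synthesis that the search pattern took for a histone. None of 10 DNA replication and repair loci, 10 pentatricopeptide repeat loci or 6 splicing and RNA-binding loci passed in limma; their brightest members were RAD4 with 7.52, 7.86 and 7.69 in Ler and 7.59, 7.36 and 7.33 in dog1-1, PPR596 with 4.59, 5.28 and 5.09 in Ler and 4.92, 5.63 and 5.52 in dog1-1 and LSM3B with 9.44, 9.27 and 9.41 in Ler and 8.77, 9.20 and 8.42 in dog1-1. Of 17 loci of a defense list 2 rose (11.8%, against 6.18% of all named loci), 1 fell (5.88%, against 4.76%) and 14 did not pass. The median change of this list was -0.10. The fall was of PDF1A, a peptide deformylase taken in by the search pattern, which fell 1.39-fold (adjusted p = 0.0132), and the rises were of the defensin-like LCR69 and LCR68, the first with 7.13, 6.37 and 5.82 in Ler and 8.45, 8.82 and 8.66 in dog1-1 (4.61-fold, adjusted p = 9.22e-05). Of 23 ubiquitin genes 2 fell (8.7%, against 4.76% of all named loci) and 0 rose. With the arrays centred on the hybridization controls 3 of them were higher and 0 lower. Of 16 RING and U-box loci 1 fell (6.25%, near the same 4.76%) and 0 rose. The fall was that of ATL5, of 1.97-fold (adjusted p = 0.00283).

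Transport and traffic genes showed few calls. CHX20, a cation and proton exchanger of endomembranes, had 6.23, 6.13 and 6.16 in Ler and 4.81, 4.57 and 3.96 in dog1-1 and fell 3.31-fold (adjusted p = 3.14e-05). TMT2, a sugar carrier of the vacuole membrane, had 6.28, 6.70 and 6.54 in Ler and 7.41, 7.57 and 7.67 in dog1-1 and rose 2.06-fold (adjusted p = 2.71e-04). GTR2, a glucosinolate transporter, had 4.80, 5.26 and 5.22 in Ler and 5.92, 5.95 and 6.34 in dog1-1 and rose 1.97-fold (adjusted p = 9.26e-04). SWEET6, of the sugar efflux family, had 8.66, 8.20 and 8.25 in Ler and 7.50, 7.77 and 7.04 in dog1-1 and fell 1.90-fold (adjusted p = 0.00507). The last 3 were named after their values were seen. Of 33 vesicle traffic loci 3 rose (9.09%, against 6.18% of all named loci) and 0 fell, and the median change was -0.03. The rises were led by PRA1.H with 5.62, 5.44 and 5.58 in Ler and 6.84, 6.34 and 6.61 in dog1-1 (2.07-fold, adjusted p = 3.47e-04). Of 7 calcium and calmodulin loci 3 rose (42.9%, against 6.18% of all named loci) and 0 fell. Among them CML42 had 3.67, 3.69 and 3.97 in Ler and 4.40, 4.42 and 4.09 in dog1-1 (adjusted p = 0.0479).

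**Figure D4:**
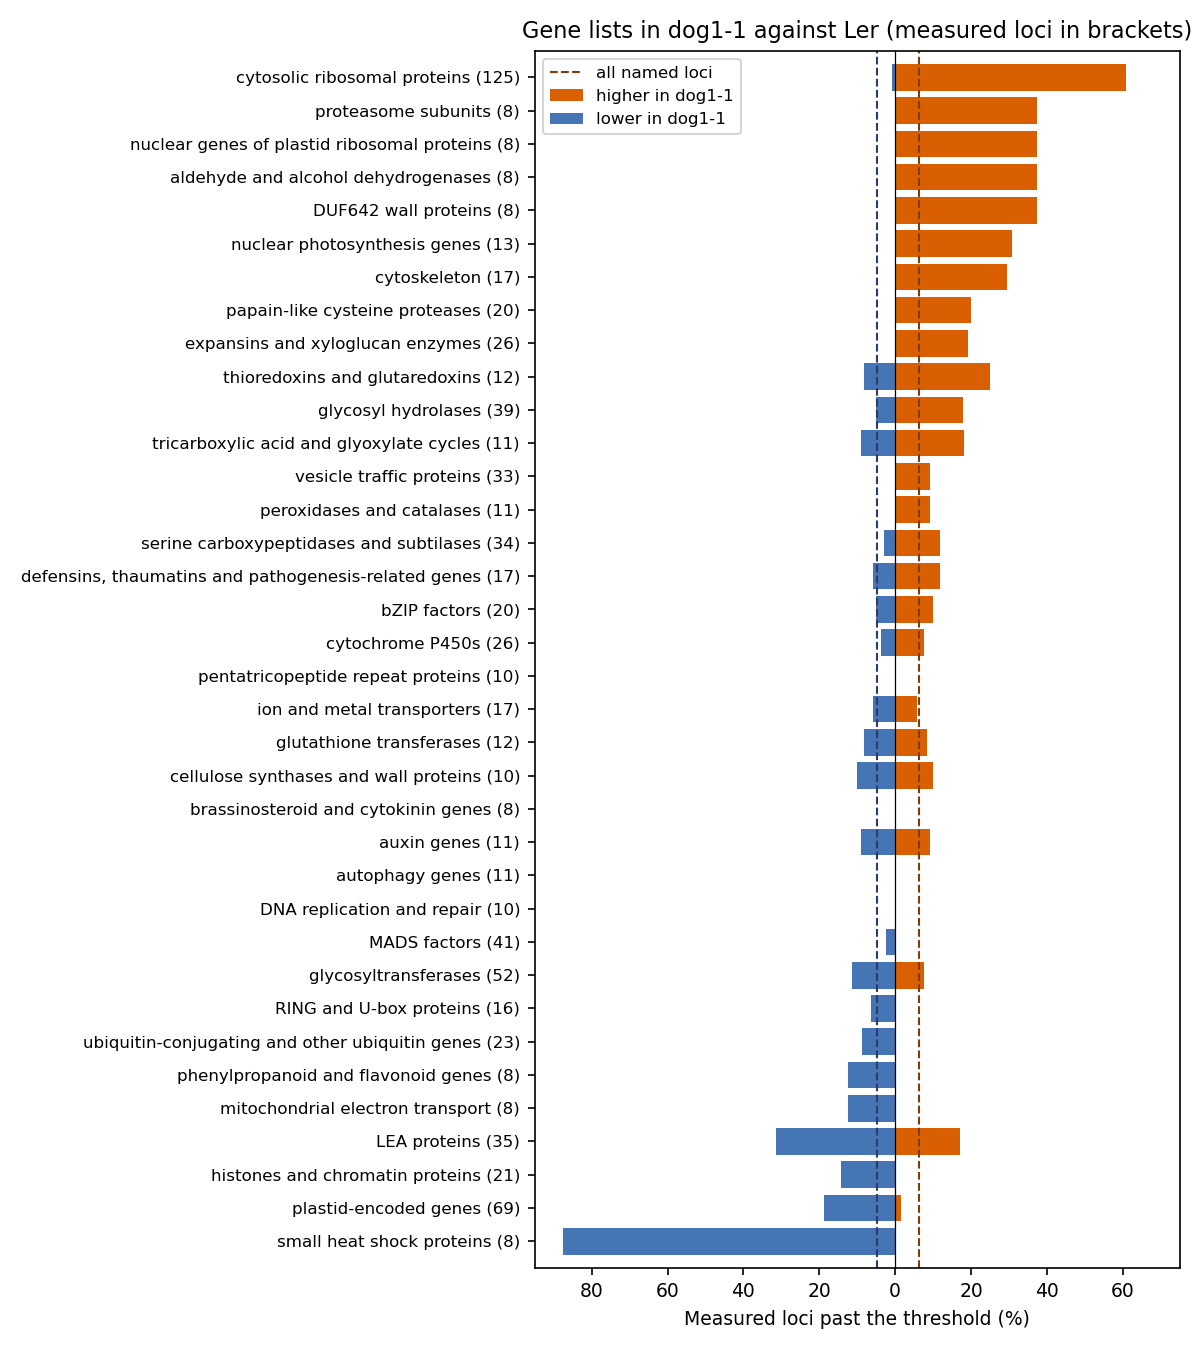
Share of measured loci past the threshold, higher in dog1-1 to the right and lower to the left (horizontal axis, percent), for gene lists with at least 8 measured loci, whose number is in brackets; dashed lines mark all named loci, 6.18% higher and 4.76% lower. Cytosolic ribosomal proteins extend farthest to the right at 60.8% and small heat shock proteins farthest to the left at 87.5%. Some lists of this size are not drawn. They are ribosomal proteins matched by description (0% higher, 20% lower), photosynthesis genes (10% and 16%) and LEA and dehydrin proteins matched by description (30% and 30%). Also not drawn are plastid-encoded ndh genes (0% and 40%), psa, psb and pet genes (3.85% and 15.4%) and rpl, rps and rpo genes (0% and 21.1%).

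Most markers of seed tissues other than the embryo and of other organs lay at or near background, while the endosperm genes IKU2 and AGL80 were above it. Of the 3 endosperm genes IKU2, a receptor kinase of early endosperm growth, had 4.10, 3.93 and 4.05 in Ler and 3.76, 3.62 and 3.46 in dog1-1 and fell by 0.42, AGL62 was at background in both genotypes, and AGL80 had 5.43, 4.90 and 5.14 in Ler and 5.23, 5.61 and 5.13 in dog1-1 and did not pass (adjusted p = 0.534). The seed coat gene BAN had 2.73, 2.93 and 2.86 in Ler and 2.81, 3.05 and 2.64 in dog1-1 and did not pass (adjusted p = 0.984). SPCH and CLV3, of shoots, and EXPA7, of root hairs, lay between 2.07 and 2.84 on all 6 arrays, at or near background.

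By signal level, rises and falls were distributed unequally. Of 7395 named loci with a mean under 4 over all arrays 2.66% rose and 1.26% fell, and between 4 and 6, 12.8% of 2194 rose (95% exact binomial interval 11.4 to 14.3) and 6.47% fell (5.48 to 7.58). Among 753 loci between 8 and 10 the shares were 12.6% (10.3 to 15.2) and 15.4% (12.9 to 18.2). Between 10 and 12, 12% of 142 loci rose (7.13 to 18.5) and 24.6% fell (17.8 to 32.6). Bright loci that fell thus outnumbered those that rose, an order that turned after centring on the hybridization controls, when 26.1% of the loci between 10 and 12 were higher and 12.7% lower. Between 4 and 6 rises outnumbered falls in both scalings. The intervals treat loci as independent, which they are not.

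**Figure D5:**
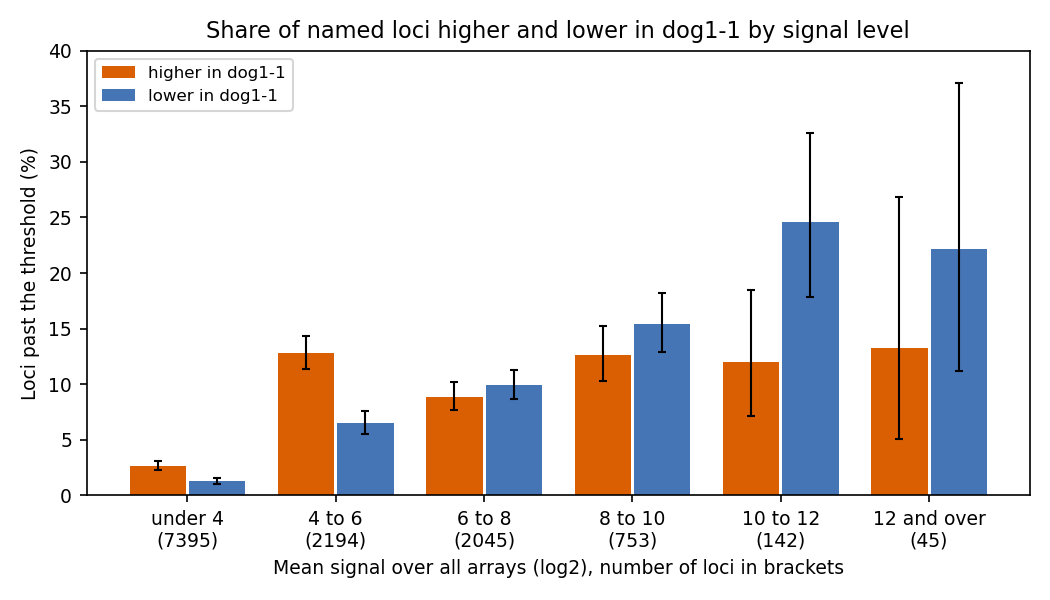
Share of named loci outside the set-aside stretches that were higher or lower in dog1-1 (vertical axis, percent) by mean signal over all 9 arrays (horizontal axis, log2), with 95% exact binomial intervals as error bars. The share lower in dog1-1 goes from 1.26% under 4 to 24.6% between 10 and 12.

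Within the set-aside stretches calls were more frequent than outside. At the start of chromosome 5, 22 of 147 named loci rose (15%) and 17 fell (11.6%), and around DOG1 52 of 565 rose (9.2%) and 60 fell (10.6%). AT5G43450, of a dioxygenase family, had 3.11, 2.96 and 2.77 in Ler and 8.20, 8.09 and 8.05 in dog1-1 and 7.91, 8.20 and 8.20 in NILDOG1. LUL1, a ubiquitin ligase gene, had 3.08, 3.28 and 2.70 in Ler and 6.72, 6.66 and 6.57 in dog1-1 and 7.34, 6.98 and 7.27 in NILDOG1. In both loci the dog1-1 and NILDOG1 arrays stood together, above all Ler arrays. AT5G01210, in contrast, had 4.60, 5.03 and 4.95 in Ler and 7.70, 7.75 and 7.75 in dog1-1 and 4.95, 4.47 and 4.60 in NILDOG1, where dog1-1 alone was high.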

How the data were processed

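Biotin-labelled RNA of 9 dry-seed samples was hybridised to Affymetrix expression arrays. Per the submitters' processing notes the authors normalized the arrays with RMA, and the values they deposited are log2 signals of probe sets, a log base read from the values. Neither an RMA version nor a chip definition is given in the sources. All 9 per-sample columns were mapped to samples by title, with 0 left over.

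Of 22810 probe sets 64 Affymetrix controls were left out. Names came from the platform annotation and a RefSeq gene table (TAIR10.1), used for names and gene order alone; 9310 probe sets tested lacked 1 named locus and were fitted but not described. A locus was represented by its probe set with the highest mean. The fit (limma 3.58.1 in R 4.3.3, lmFit and eBayes with a constant prior) used all 9 arrays, 1 mean per genotype and 6 residual degrees of freedom, with Benjamini-Hochberg adjustment over 22746 probe sets. The number of arrays limits precision, and p-values measure the spread between bulks. The fit was tested on simulated data. Tables were made in Python 3.11.15 with pandas 2.3.3 and scipy 1.17.1.

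The members, lists and settings were chosen with earlier results of these data known. Of 86 lists matched by description or symbol, 39 had at least 5 measured loci and 14 had none; a list matched to resistance genes held plastid rps genes and is not described. Lists by locus identifier were added after the values were seen, from general knowledge of the loci. They include ribosomal, LEA, small heat shock, storage, oil body, proteasome, papain-like, DUF642 and plastid ribosomal proteins, translation factors and clade A PP2C. The plastid genome, the nuclear photosynthesis genes and the tubulins were added in the same way. Named were the 12 largest rises and falls without overlap of the arrays, up to 3 per list and direction, members that passed in small lists, and hormone and tissue markers. Further genes, not all of them marked so above, were chosen after their values were seen. Alternatives were another scaling, filter, prior, weighting and threshold, and leaving out each array.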

Additional observations from a re-analysis of the deposited data

How the results depend on the processing

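Leaving out each Ler and dog1-1 array in turn gave 2182 to 3059 probe sets called between dog1-1 and Ler (3095 with all), 567 to 811 named loci higher (777), 380 to 556 lower (599), the lowest being without dog1-1 replicate 3, 60 to 82 ribosomal protein loci higher (76), 7 to 7 small heat shock loci lower (7), 4 to 6 LEA loci higher (6), 9 to 10 lower (11), 9 to 13 plastid-encoded loci lower (13) and 2 to 5 tubulins higher (5, and 3 in a fit of the 6 arrays alone). Centring on the hybridization controls gave 5173 probe sets, 2277 loci higher, 150 lower and 5 plastid-encoded loci lower; by construction it raises every dog1-1 value against Ler, and SBT3.5, CHIL and SDH1-1 turned to 0.020, 0.040 and 0.030. At least 2-fold changes numbered 784, 219 and 102, and an adjusted p under 0.01 gave 1847, 477 and 306. With the replicate number as a term, a replicate block, 2792 probe sets, 725 loci higher and 500 lower passed; correlations of same-numbered Ler and dog1-1 arrays were -0.00959 to 0.0299, so the numbers were not read as pairs. Of 169 called named genes 135 to 168 kept their call across the settings. Promoter motif shares were not run, since no promoter sequences were used here. Signals near 2.56 or near the top of the scale limit what a call, or none, can show.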
